A study of Mus musculus with 2 samples.

Results

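The members were intronic H1t peaks of protein-coding genes shorter than 100 kb. A peak on chromosomes 1 to 19 was a member when its midpoint lay inside such a gene and inside no coding gene of 100 kb or more, in no annotated exon, and more than 2 kb from every annotated transcript start (GENCODE M21, mm10). The rule took 4614 of the 72438 peaks on these chromosomes, 6.37% of them, and 6.03% of the 76546 peaks in the list. The position of a peak chose the members, and neither width nor score did. The peaks came from chromatin immunoprecipitation and sequencing of spermatogenic cells isolated from testes of ICR mice at 6 weeks of age, with an in-house rabbit polyclonal antibody against H1t. The series holds 2 libraries, this H1t library and an input without antibody, which was not analysed here. With 1 library there was no replicate and no test between conditions, and the labels do not say how many animals gave the cells. Spermatogenic cells are a mixture of germ cells at several stages, so a peak cannot be placed in one of them.

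Linker histones bind the nucleosome where DNA enters and leaves it and hold the adjoining linker DNA, which favours a compact chromatin fibre. H1t is a linker histone variant made in the testis. It appears in spermatocytes and stays into the round spermatid before histones give way to transition proteins and protamines. Introns are transcribed and spliced out, and can hold enhancers, unannotated start sites and transposed elements.

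The sequence that could hold a member, called eligible intron here, is all sequence that meets the rule. Where RefSeq places a transcript start inside a member, the DNA under the peak can be shown directly. RefSeq windows of 300 bases, 250 before to 50 after the start (GRCm38.p6), lay wholly inside a member for 9 starts at 7 sites. The host gene of the member is named after the RefSeq gene, the sequence reads 5′ to 3′ on the strand of the RefSeq gene, and capitals mark each CG dinucleotide, the site of DNA methylation. All 7 sites are shown, in falling order of CG dinucleotides, with the first of a pair of windows that differ by 1 base.
Gm52298 window in Gm3448, chr17:15024496-15024795, minus strand: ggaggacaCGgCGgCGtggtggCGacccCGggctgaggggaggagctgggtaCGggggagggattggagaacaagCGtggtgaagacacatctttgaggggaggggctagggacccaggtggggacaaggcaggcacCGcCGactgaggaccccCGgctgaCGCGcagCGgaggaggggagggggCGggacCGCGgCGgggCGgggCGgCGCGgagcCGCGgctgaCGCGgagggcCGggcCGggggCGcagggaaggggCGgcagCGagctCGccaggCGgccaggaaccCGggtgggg
Gm3134 window in Sall1, chr8:89040993-89041292, plus strand: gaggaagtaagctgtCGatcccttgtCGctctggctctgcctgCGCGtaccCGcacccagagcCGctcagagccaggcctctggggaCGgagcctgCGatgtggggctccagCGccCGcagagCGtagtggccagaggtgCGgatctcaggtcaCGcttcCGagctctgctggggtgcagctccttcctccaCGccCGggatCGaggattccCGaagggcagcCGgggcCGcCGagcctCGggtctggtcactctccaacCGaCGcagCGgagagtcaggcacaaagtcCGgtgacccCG
Gm38483 window in Zfp385c, chr11:100673137-100673436, plus strand: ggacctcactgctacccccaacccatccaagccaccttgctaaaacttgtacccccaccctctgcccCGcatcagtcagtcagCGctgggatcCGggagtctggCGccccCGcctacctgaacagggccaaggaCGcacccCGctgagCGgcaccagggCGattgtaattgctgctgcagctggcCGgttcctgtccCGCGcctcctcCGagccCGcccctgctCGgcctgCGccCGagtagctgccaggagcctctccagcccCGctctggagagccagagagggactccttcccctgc
Gm39572 window in Emid1, chr11:5135964-5136263, plus strand: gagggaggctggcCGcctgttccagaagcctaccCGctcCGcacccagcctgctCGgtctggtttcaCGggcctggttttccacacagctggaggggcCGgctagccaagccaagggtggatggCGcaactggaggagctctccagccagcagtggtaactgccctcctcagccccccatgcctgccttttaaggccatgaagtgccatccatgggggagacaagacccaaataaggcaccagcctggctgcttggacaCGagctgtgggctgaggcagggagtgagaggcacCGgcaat
Gm33250 window in Evpl, chr11:116225010-116225309, plus strand: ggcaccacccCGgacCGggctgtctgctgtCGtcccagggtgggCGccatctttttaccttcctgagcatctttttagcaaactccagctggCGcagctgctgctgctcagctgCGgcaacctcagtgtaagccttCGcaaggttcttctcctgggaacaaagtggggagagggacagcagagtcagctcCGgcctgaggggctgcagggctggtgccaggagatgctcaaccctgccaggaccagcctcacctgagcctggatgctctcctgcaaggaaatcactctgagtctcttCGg
Gm38485 window in Foxo3, chr10:42273842-42274141, minus strand: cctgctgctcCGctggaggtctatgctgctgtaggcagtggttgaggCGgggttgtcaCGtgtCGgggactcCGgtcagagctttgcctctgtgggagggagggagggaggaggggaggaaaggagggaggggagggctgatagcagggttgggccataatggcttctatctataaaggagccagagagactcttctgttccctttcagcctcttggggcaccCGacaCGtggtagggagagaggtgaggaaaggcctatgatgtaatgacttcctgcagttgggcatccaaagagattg
Gm52188 window in Elfn2, chr15:78686841-78687140, plus strand: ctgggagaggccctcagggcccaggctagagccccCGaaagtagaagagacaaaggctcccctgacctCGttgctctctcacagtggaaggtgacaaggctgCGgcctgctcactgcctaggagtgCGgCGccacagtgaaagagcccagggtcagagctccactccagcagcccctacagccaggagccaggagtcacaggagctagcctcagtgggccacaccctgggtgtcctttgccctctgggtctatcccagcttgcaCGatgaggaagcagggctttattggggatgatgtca

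The window in Gm3448 had 33 CG dinucleotides and a GC content of 76.3%, and at least 33 were found in 8.56% of the 32851 windows of the RefSeq table. The window in Sall1, a zinc finger repressor of organ development, had 27 and a GC content of 68.0%, and 15.5% of all windows had at least 27. The window in Zfp385c had 18, with 29.7% of all windows at or above that. The windows in Emid1 and in Evpl, which encodes envoplakin of the cornified envelope, had 9 each, and 45.8% of all windows had at least 9. The window in Elfn2 had 6, with 56.4% at or above that. The window in Foxo3, a transcription factor of the insulin pathway, had 7, and 52.1% of all windows had at least 7. The dinucleotide reads the same on both strands, so 1 search covered both. Over the 9 windows the median was 9 CG dinucleotides and a GC content of 63.3%, against 7 and 52.7% over all windows. The rule leaves out peaks within 2 kb of every GENCODE start, so few RefSeq starts could lie near a member. Of the 4511 members whose nearest RefSeq start could be looked up, 44 lay within 2 kb of one (0.975%). The members that hold these windows had scores of 69.6 (Gm3448, 574 bp wide), 95.7 (Sall1, 645 bp), 53.5 (Zfp385c, 607 bp), 50.3 (Emid1, 511 bp), 91.6 (Evpl, 914 bp), 57.7 (Foxo3, 563 bp) and 69.95 (Elfn2, 844 bp). The midpoint of the member in Evpl lay 50 bp from an exon, and the others lay 762 bp (Emid1) to 14136 bp (Zfp385c) from one.

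H1t peaks were sparser in these introns than outside genes, in exons and near transcript starts. Members lay at 18.96 per Mb of eligible intron (95% exact Poisson interval 18.4 to 19.5, 4614 peaks in 243.3 Mb). Introns of genes of 100 kb or more, chosen by the same distance and exon rules, had 20.35 per Mb (19.96 to 20.74, 10694 peaks), and sequence outside genes had 33.4 per Mb (33.0 to 33.7). Exons had 44.99 per Mb and sequence within 2 kb of a start 42.5 per Mb. The ratio of members to sequence outside genes was 0.568 (0.551 to 0.586). The ratio to introns of the longer genes was 0.932 (0.900 to 0.965), and it was 0.977 (0.939 to 1.02) where only sequence over 5 kb from starts was counted and 0.974 (0.943 to 1.01) with the basic transcript set. These ratios pool unlike distances to exons: 18.4% of eligible intron lay 5 kb or more from an exon, against 60.2% in the longer genes. Within each class of distance to the nearest exon the ratio stood above 1, as given below. All intervals given here cover counting error only. Neighbouring peaks are not independent, read depth is unknown, background by sequence content was not measured, and these intervals include none of that.

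Members were narrower and lower in score than peaks in introns of the longer genes and than the list as a whole. The median member was 639 bp wide (quartiles 544 and 823), against 703 bp (572 to 911) in introns of the longer genes and 699 bp over chromosomes 1 to 19. The authors' score had a median of 68.0 in members, 74.9 in introns of the longer genes and 73.8 over chromosomes 1 to 19. A score of 100 or more was reached by 22.4% of members and by 31.2% of peaks in introns of the longer genes. Exon peaks were narrower and lower still, with medians of 615 bp and 64.6, and 14.3% at 100 or more. Peaks near starts were close to members, with medians of 651 bp and 68.6, and 21.03% at 100 or more. Widths ran from 304 to 4496 bp. Of the members, 597 were under 500 bp wide (12.9%, against 8.10% of all peaks on chromosomes 1 to 19), 3344 were 500 to 1000 bp (72.5%, against 72.3%), 602 were 1000 to 2000 bp (13.05%, against 17.8%) and 71 were 2 kb or wider (1.54%, against 1.82%). Width and score moved together over the members (Spearman's rho 0.761, n = 4614), as a description of peaks of 1 library that share its depth.

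**Figure D1:**
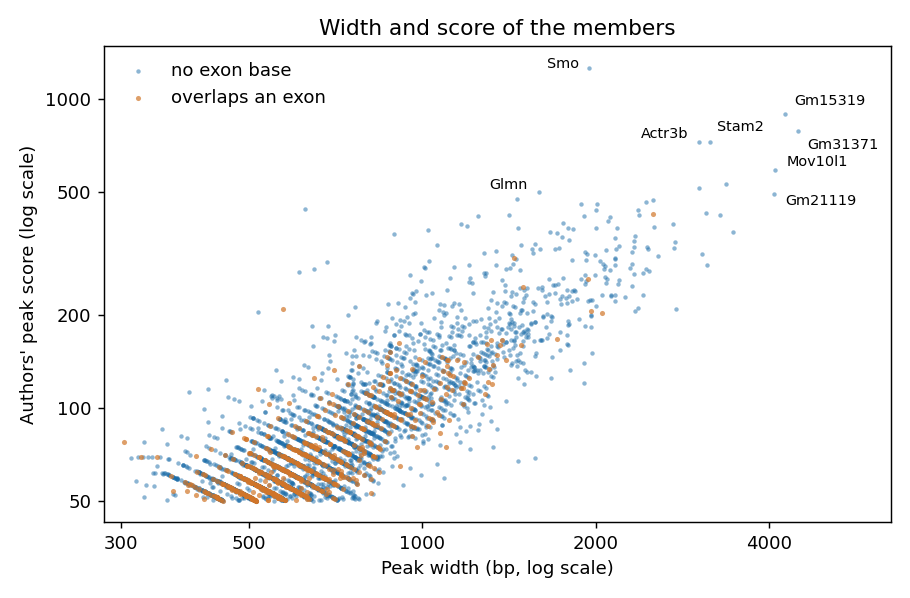
Width in bp against the authors' score for the 4614 members, on log axes. Each point is a peak, orange where it overlaps an annotated exon and blue where it does not. The highest score is in Smo (1264), and the widest peaks reach 4496 bp.

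At the limits of the rule the density changed little. Members in genes of 50 to 100 kb lay at 18.95 per Mb with a median width of 648 bp, and intronic peaks in the next class, the shortest of the longer genes, lay at 18.7 per Mb. Peaks that met every other criterion but lay 1 to 2 kb from a start had 17.1 per Mb (649 peaks), those at 2 to 5 kb had 15.97 per Mb (1266 members) and those beyond 5 kb had 20.4 per Mb (3348 members). By gene length, members lay at 15.7 per Mb in genes under 10 kb (12.79 to 19.09, 101 members), 17.9 at 10 to 25 kb and 19.8 at 25 to 50 kb. Genes under 10 kb stood at 0.829 times those of 50 to 100 kb (0.672 to 1.01), a direction that turned to 1.21 (1.04 to 1.39) with the basic transcript set. By chromosome, members ran from 14.1 per Mb on chromosome 14 to 24.0 on chromosome 15.

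The place of members relative to exons had a minimum 250 to 500 bp away from them. Midpoints under 250 bp from an exon lay at 21.7 per Mb (20.1 to 23.4, 699 members), those at 250 to 500 bp at 8.68 per Mb (7.56 to 9.91, 217 members), and density then rose with each class to 27.0 per Mb (25.5 to 28.5, 1207 members) at 5 kb and beyond. The density under 250 bp was 2.50 times that at 250 to 500 bp (2.14 to 2.92), and the density at 5 kb and beyond was 3.11 times it (2.69 to 3.61). Introns of genes of 100 kb or more had the same minimum, but less density beside the exon: 9.33 per Mb under 250 bp. Members exceeded those introns 2.33-fold there (1.97 to 2.75) and 1.15-fold at 5 kb and beyond (1.08 to 1.22). In order of distance, the classes between had ratios of 1.27 (1.01 to 1.60), 1.08 (0.936 to 1.26), 1.11 (0.989 to 1.24) and 1.07 (1.002 to 1.15). Every class thus stood above 1, although the ratio over all distances was 0.932.

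By intron length density again had a minimum, in introns of 1 to 2 kb, and a midpoint in a short intron is close to an exon. Members in introns under 1 kb lay at 34.0 per Mb (30.7 to 37.5, 395 members), in introns of 1 to 2 kb at 11.1 per Mb (9.76 to 12.6, 241 members) and in introns of 10 to 20 kb at 23.2 per Mb (21.8 to 24.6, 1055 members). Introns under 1 kb of the longer genes had 11.0 per Mb, so members exceeded them 3.08-fold (2.25 to 4.32). Introns of 20 kb and over held members at 21.3 per Mb, and their ratio to the longer genes was 0.999 (0.937 to 1.06). With midpoints and territory both 500 bp or more from exons, density was 7.96 per Mb in introns of 1 to 2 kb, 24.2 at 10 to 20 kb and 21.6 at 20 kb and over. Such sequence in introns of 1 to 2 kb lies within 1 kb of an exon, so this limit did not hold exon distance equal. At 2 kb or more from exons, density was 23.6 per Mb in introns of 5 to 10 kb, 26.2 at 10 to 20 kb and 22.7 at 20 kb and over. Introns of 2 to 5 kb lay lower there, on 15 members (5.61 to 16.5 per Mb). An effect of intron length apart from exon distance was not tested. Over members, the intron around the midpoint had a median length of 10012 bp, with quartiles of 3850 and 20354 bp. An intron with several members counts once for each.

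**Figure D2:**
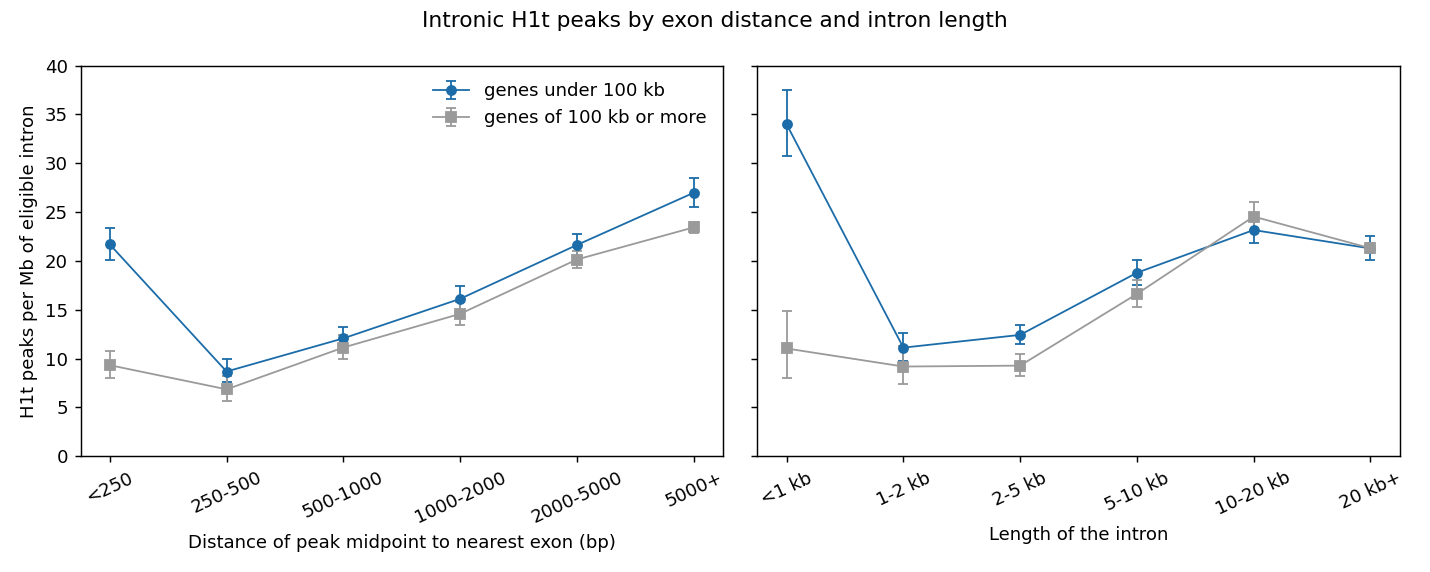
H1t peaks per Mb of eligible intron by distance of the peak midpoint to the nearest exon in bp (left) and by intron length (right), for genes under 100 kb (blue, the members) and genes of 100 kb or more (grey). Bars are 95% exact Poisson intervals. Members stand above the longer genes under 250 bp from an exon (21.7 against 9.33 per Mb) and in introns under 1 kb (34.0 against 11.0 per Mb).

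The peaks beside exons were partly exonic themselves. Although every midpoint was intronic, 749 members (16.2%) overlapped an annotated exon by at least 1 base, and 3749 (81.3%) lay wholly in eligible intron. Counting only those, over the same territory, turned 3 of the ratios given here. Under 250 bp against 250 to 500 bp from an exon stood at 0.0296, and introns under 1 kb against 1 to 2 kb at 0.222. Ranks of 4 and over against rank 1 stood at 0.931, with an interval that included 1 (0.859 to 1.01). That choice empties the sequence beside exons. The members with exon overlap had a median width of 608 bp and a median score of 63.1, and the 2602 members at least 2 kb from an exon (56.4%) had 683 bp and 72.2. The annotated transcripts of their host genes also differed: the median GC content was 56.6% for the members with exon overlap and 46.2% for those at least 2 kb away.

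Host transcript GC content divided the members differently near and far from exons. Genes with eligible intron were divided into 5 classes of equal size by the GC content of the chosen transcript, introns excluded. Under 500 bp from an exon, density was 3.29 per Mb (2.31 to 4.56, 36 members) in the class of lowest GC content, then 3.95, 9.44 and 20.4, and 52.6 per Mb (47.9 to 57.5, 471 members) in the class of highest GC content. At 2 kb or more from an exon, density was highest in the class of lowest GC content, at 36.6 per Mb (34.3 to 39.2, 881 members). It was 24.5, 17.3 and 15.2 per Mb in the next 3 classes and 24.3 per Mb (21.98 to 26.79, 403 members) in the class of highest GC content. Over all distances the lowest class had 22.1, the middle class 13.7 and the highest class 31.7 per Mb. The GC content of the peaks themselves was not computed, and whether the recovery of fragments by GC content differed in the input was not tested.

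**Figure D3:**
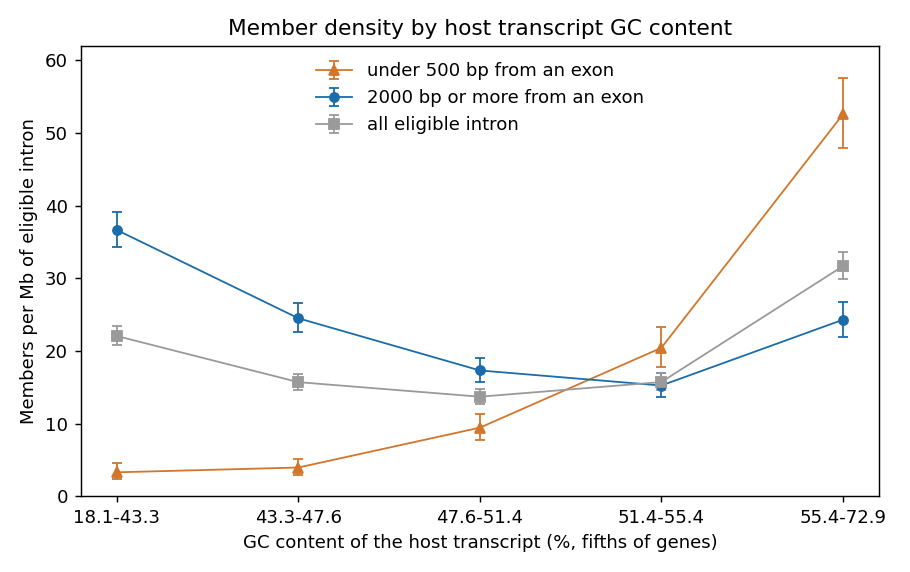
Members per Mb of eligible intron by class of host transcript GC content in %, under 500 bp from an exon (orange), at 2 kb or more from an exon (blue) and over all eligible intron (grey). Bars are 95% exact Poisson intervals. Near exons the density climbs to 52.6 per Mb in the highest class, while far from exons it is highest, at 36.6 per Mb, in the lowest class.

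By rank, members were sparser in the first and second introns of their genes than in later ones. Rank was counted 5′ to 3′ in the coding transcript with the longest coding sequence, and 4330 members (93.8%) lay in an intron of it, at a median rank of 4. The first intron held 1024 of them (23.6%) at 16.6 per Mb (15.6 to 17.7), and the second 605 at 16.8 per Mb (15.5 to 18.2). Ranks 4 to 6 held 923 at 20.3 per Mb (18.98 to 21.62), and ranks of 11 and over 679 at 21.5 per Mb (19.9 to 23.2). Ranks of 4 and over were denser than rank 1 by a ratio of 1.23 (1.14 to 1.33), against 1.16 (1.097 to 1.217) in the longer genes. First introns adjoin the start, and over 5 kb from starts the ratio was 1.12 (1.02 to 1.22). Last introns held 502 members at 20.1 per Mb. The other 284 members lay in no intron of the chosen transcript.

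Distance from exons separated the ranks further. The share of members that overlapped an exon was 1.76% in first introns, 8.76% in second introns and 40.8% at ranks of 11 and over. With midpoints and territory both kept to 2 kb or more from exons, members lay at 18.3 per Mb in first introns (17.05 to 19.52, 855 members), 20.3 in second introns, 30.9 in introns of rank 3 and 34.1 at ranks 4 to 6 (31.0 to 37.4, 445 members). Ranks of 4 and over were then 1.88 times as dense as rank 1 (1.70 to 2.07). In the longer genes the same territory had 18.7 per Mb in first introns and 23.2 at ranks 4 to 6. Ranks 7 to 10 had 26.1 per Mb there and ranks of 11 and over 28.7, against 32.2 and 37.8 for members. From 500 bp outward the ratio was 1.27 (1.17 to 1.37), close to that over all distances. Median width hardly changed with rank, from 615 bp in second introns to 654 bp at ranks 4 to 6. With each intron cut into 5 equal parts, the middle part held 20.6 members per Mb, the part next to the 5′ exon 17.3 and the part next to the 3′ exon 15.5.

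**Figure D4:**
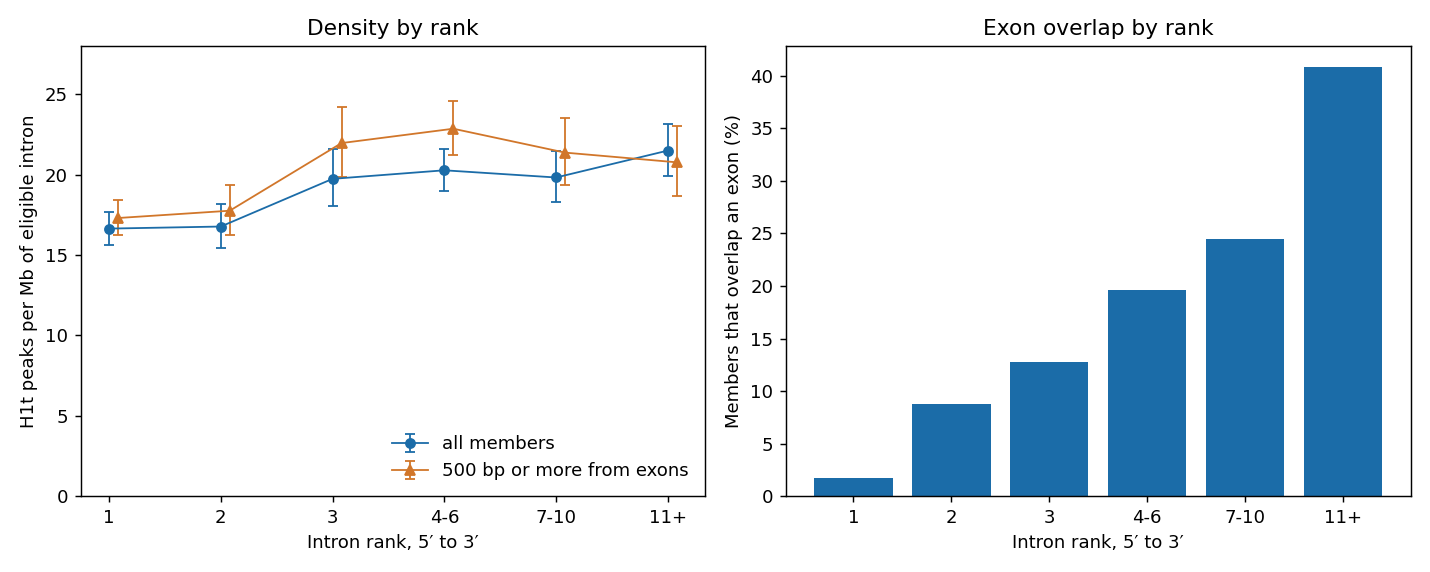
Left, members per Mb of eligible intron by intron rank, for all members (blue) and for midpoints 500 bp or more from exons (orange), with 95% exact Poisson intervals. Right, the share of members in % that overlap an exon, by rank. Density is 16.6 per Mb in first introns and 20.3 at ranks 4 to 6, and exon overlap goes from 1.76% at rank 1 to 40.8% at ranks of 11 and over.

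Members were spread over many genes. They lay in 2737 host genes, and 2723 of the 12665 coding genes with at least 1 kb of eligible intron held at least 1 member (21.5%, exact binomial interval 20.8 to 22.2). Of the hosts, 1778 held a single member, 499 held 2, 350 held 3 or 4, 93 held 5 to 7 and 17 held 8 or more. The share with a member followed the amount of intron, from 4.42% of genes with 1 to 5 kb of eligible intron to 54.4% of genes with 50 kb or more. Another H1t peak had its midpoint within 10 kb of that of 62.4% of members, against 61.9% of peaks in introns of the longer genes.

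**Figure D5:**
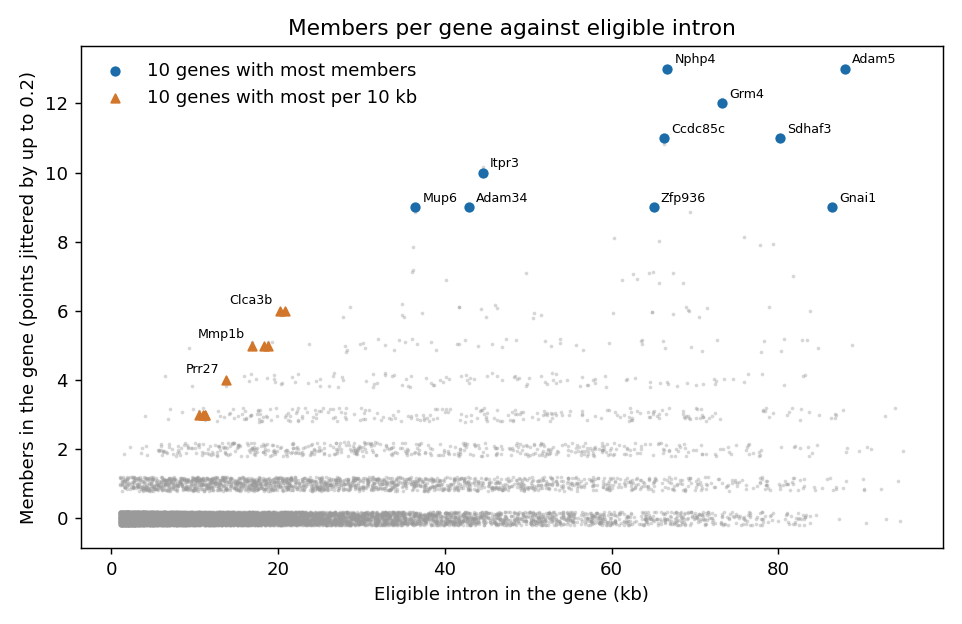
Members per gene against eligible intron in kb for coding genes under 100 kb with at least 1 kb of it. Each grey point is a gene, blue points are the 10 genes with most members and orange triangles the 10 genes with most members per 10 kb. Nphp4 and Adam5 hold 13 members each, and the densest genes, such as Clca3b with 6, hold theirs in little intron.

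The genes with most members fell into different arrangements. Nphp4, which encodes nephrocystin-4 of the ciliary transition zone, had 13 members in 66.7 kb of eligible intron, spread from intron 3 to intron 28 of 29, with scores from 50.2 to 202.3 and 3 that overlapped an exon. Adam5, of the ADAM family of sperm surface proteins, also had 13, between introns 12 and 18 of 20, and none overlapped an exon. Grm4, a metabotropic glutamate receptor, had 12 in 73.3 kb. Sdhaf3, a succinate dehydrogenase assembly factor, had all its 11 members in its only intron of 82653 bp, the most of any intron. They were 542 to 1800 bp wide and scored from 54.1 to 230.5. Ccdc85c had 11, of which 7 lay in the first intron.

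Itpr3, the type 3 inositol trisphosphate receptor, showed the exon-overlapping kind. Its 10 members lay between introns 1 and 57 of 57, and 7 of them overlapped an exon. Their scores ran from 50.7 to 120.5. Gnai1, an inhibitory G protein subunit, had 9 with no exon overlap and a highest score of 354.9. Adam34 had 9 in intron 3, its last. Zfp936 and Mup6, of the zinc finger and major urinary protein families, had 9 each, all outside the chosen transcript's introns, so they have no rank here. Genes such as these belong to families of related copies, and how reads with several matching positions were placed is not given in the sources used here, so counts in them are uncertain.

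By members per 10 kb, small genes led, mostly through a single intron. Clca3b, of the calcium-activated chloride channel regulators, had 6 members in intron 9 (2.97 per 10 kb, highest score 418.1). Mmp1b, a collagenase-like metalloproteinase, had 5 in intron 6 (2.97 per 10 kb). Prr27 had 4 in intron 1, Oosp1, an oocyte-secreted protein, 6 in intron 3, Gm14548 3 in intron 8 and Prl3a1, of the placental prolactin family, 3 in intron 1. Olfr18, an olfactory receptor gene, had 5 in its only intron, Serpina10, a serine protease inhibitor, 3 in intron 4 and Zswim2 5 in intron 3. Cyp26b1, the retinoic acid hydroxylase that keeps fetal germ cells from entering meiosis, had 3, in introns 1 and 2, and 1 overlapped an exon. These 10 genes were chosen for their density, which is a description.

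The members with the highest scores were wide and held no exon sequence. The member with the highest score, 1264, lay in intron 1 of Smo, the Hedgehog signal transducer, at chr6:29747368-29749318, was 1951 bp wide and lay 2418 bp from the nearest exon. Stam2, an endosomal sorting protein, had a member of 3162 bp in its last intron, number 13 (score 726.2). Actr3b, an actin-related protein, had one of 3024 bp in intron 4 (725.9). Mov10l1, the germ-cell RNA helicase of piRNA biogenesis, had one of 4103 bp in intron 22 of 26 at chr15:89032533-89036635 (score 590.0), and a second of 617 bp in the same intron (91.3). Dcp1b, a decapping factor (530.2), Ankrd13c (514.7) and Glmn (498.7) followed, and none of the 10 members with the highest scores overlapped an exon.

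Predicted genes of 1 family gave 3 of the 4 widest members. Gm31371 had a member of 4496 bp (score 786.1), Gm15319 one of 4259 bp (892.3) and Gm21119 one of 4080 bp (493.5), all on chromosome 8 and in introns of 12622, 12716 and 12953 bp. They lay at like places, 1125, 1167 and 1643 bp from the 5′ exon. The chosen transcripts of Gm15319 and Gm21119 were 99.6% identical over 2522 bases. That of Gm31371 was shorter, 2088 bases, and differed from the first of them by 452 edits (82.1% by edit distance). Each base of the length difference counts as an edit, and these make up most of the 452. Identity over the shared bases was not computed. Reads from 1 copy may match another, so these scores cannot be assigned to a single copy. The other members among the 10 widest lay in Il1rl1, the interleukin-33 receptor (3467 bp), Slc6a20b (3286 bp), Zfp984 (3122 bp) and Btbd7 (3111 bp), with Dcp1b and Stam2. Over the 71 members of 2 kb or wider, the median score was 319.6, the median host transcript GC content 43.7%, and another H1t peak lay within 10 kb for 84.5%.

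Col7a1, the anchoring fibril collagen, held the member of highest rank, in intron 73 of 118. That intron was 86 bp long and the peak 607 bp (score 66.0, chr9:108972547-108973153), so it covered 340 bases of exon.

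Genes of the testis were examined by list, beside the 21.5% of all eligible genes that held a member and their median of 12.2 kb of eligible intron. Of the cilium and flagellum list, 19 of 42 eligible genes held one (45.2%, 29.8 to 61.3), with a median of 28.3 kb of eligible intron. Their density, 23.6 members per Mb (16.2 to 33.3), had an interval that included that of all eligible genes, 18.95 per Mb, and 39.4% of all genes with 25 to 50 kb held a member. Cfap69, of the sperm flagellum, had 4 members with a highest score of 187.0, Rsph3b, a radial spoke gene, had 4 (79.4), and Cfap221 had 3 (327.2), all in intron 15. Among its intraflagellar transport genes, Ift74 had 2 members, and Ift57, Ift52, Ift81 and Ift27 had 1 each.

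Of the piRNA pathway list, which covers the small RNAs that silence transposons in germ cells, 9 of 25 eligible genes held a member (36.0%, 18.0 to 57.5), with a median of 33.2 kb of eligible intron and 24.5 members per Mb (15.0 to 37.9). Tdrd9, a helicase, had 5 between introns 23 and 33, with a highest score of 65.4. Asz1, of the germ granule, had 4, all in intron 10 (highest score 113.8). Henmt1, the methyltransferase of piRNA 3′ ends, had 3 in intron 3 (136.1). Beside Mov10l1, Piwil1, an Argonaute protein that binds piRNAs, had 2 (234.1).

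Of the meiotic list, 10 of 44 eligible genes held a member (22.7%, 11.5 to 37.8), and density was 10.3 per Mb (5.35 to 18.1) with a median of 18.0 kb of eligible intron. Msh4, of the crossover machinery, had 2, in introns 18 and 19 (highest score 89.3). Terb1, which ties telomeres to the nuclear envelope, had 2 in intron 3 (highest score 54.4). Hfm1, a crossover helicase, had 1 of 1577 bp in intron 31 (score 149.9). Of the spermatid list, 7 of 31 held a member (22.6%, 9.59 to 41.1), at 25.6 per Mb (14.0 to 43.0): Spag6l, of the axoneme central pair, had 4 in intron 2 and Hook1, needed for sperm head shape, 3 in intron 2 with scores of 145.3 to 191.6. Spaca1, of the acrosome membrane, had 2. Of the spermatogonial list, 4 of 16 held 1 member each (25%, 7.27 to 52.4), among them Kit, the stem cell factor receptor, Ret and Ccnd2, with scores of 52.5, 54.1 and 66.1. Scores in the peak list begin at 50. At or above its median score no gene of the spermatogonial list held a member (0%, 0 to 20.6), an interval that included the 10.2% of all eligible genes at that score.

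Lists of the other cell types of the testis gave 4 of 19 for Sertoli cells (21.1%, 6.05 to 45.6), 5 of 13 for Leydig cells (38.5%, 13.9 to 68.4) and 1 of 19 for blood cells and macrophages (5.26%, 0.133 to 26.0). Ocln, a tight junction protein, and Gata4, a gonadal transcription factor, had 2 each, and Gdnf, the growth factor of spermatogonial stem cells, had 1 of 1734 bp (175.9). Lhcgr, the luteinizing hormone receptor, and Akr1c14, a steroid-metabolizing enzyme, had 2 each. Nr4a1 had 1 (score 54.7), and Cd4 had 1 (55.9) that overlapped an exon. A peak list does not measure expression, so it does not check which cells were present. Of the chromatin and linker histone list 4 of 28 held a member (14.3%, 4.03 to 32.7): Chd5, a remodeller needed for spermatid chromatin compaction, had 3 of which 2 overlapped an exon, Dnmt1, the maintenance DNA methyltransferase, 2 that both did, Ezh2, the H3K27 methyltransferase, 1 of 2310 bp in intron 15 (248.7), and Ctcfl 1. Of the RNA polymerase I and nucleolus list 4 of 30 did (13.3%, 3.76 to 30.7), with 2 in Polr1a, the largest subunit of the enzyme, and 1 in Utp4. For 9 of the 10 lists the interval included 21.5%, the exception being cilium and flagellum, whose genes had more eligible intron than the median gene. By density, the interval of 9 of the 10 lists included the 18.95 per Mb of all eligible genes, the exception being the meiotic list, which lay lower at 10.3 per Mb (5.35 to 18.1, 12 members). The lists share genes, so they are not independent. Mael and Tex15 count in both the meiotic and piRNA lists, and Nr5a1 in both the Sertoli and Leydig lists.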

How the data were processed

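H1t chromatin immunoprecipitation from mouse spermatogenic cells gave 1 peak list. Enzymatic fragmentation was used, per the labels' protocols. The submitters' processing notes name Bowtie 1.1.2 and mm10. Information on the peak-calling program, its cut-off and the placing of multiply matching reads was not given in the sources used here. Each peak in the deposited list has a score, which is the authors' own value and served only to describe, rank and filter peaks within the list. Read depth is unknown.

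Midpoints were compared with GENCODE M21. Where coding genes overlapped, the host was the gene whose chosen transcript has an intron there, then the shortest. Rank came from the coding transcript with the longest coding sequence. Densities divide by eligible intron between the first and last feature of each chromosome, with assembly gaps not excluded. Intervals are 95% exact Poisson intervals for densities, exact conditional intervals for ratios and Clopper-Pearson intervals for shares. The counting of territory and peaks was tested on simulated data. Those data were drawn with the same classes of sequence and introns, so the test could not show an error in the classes themselves. Members and gene lists were chosen with earlier results of these data known. Named genes were the 10 with most members, the 10 with most per 10 kb (at least 10 kb of eligible intron), the 3 leading genes of each list, and the 10 members with the highest scores and the 10 widest. Col7a1, the other listed genes named, the classes of transcript GC content, the classes by exon overlap, the 2 kb limit by rank, the comparison of 3 predicted genes and the RefSeq windows were chosen after the data were seen. RefSeq starts on chromosome 18 were not used here, and sequence content of peaks was not computed. Alternatives covered score, exon overlap, start distance, gene length limit and annotation. Software was Python 3.11.15 with scipy 1.17.1, numpy 2.4.6, pandas 2.3.3, edlib 1.3.9.post1 and matplotlib 3.10.9.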

Additional observations from a re-analysis of the deposited data

Results flagged for a closer look

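Chromosomes X and Y were in no comparison. On X, 122 peaks met the same rule, at 11.8 per Mb of eligible intron (exact Poisson interval 9.78 to 14.1), and on Y 11 peaks met it, at 4.76 per Mb (2.38 to 8.52). Both are given because peaks were found in data outside the comparisons. The difference from the members' density on chromosomes 1 to 19 was not tested.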

How the results depend on the processing

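Of 216 values recomputed under 11 settings, 147 stayed within their bounds, 66 moved and 3 reversed. All 3 values counted as reversed came with the whole peak required to lie in eligible intron. The density of ranks 4 and over against rank 1 was then 0.931, with an interval that included 1 (0.859 to 1.01). Introns under 1 kb against 1 to 2 kb stood at 0.222, and under 250 bp against 250 to 500 bp from an exon at 0.0296. The gene length ratio, 0.829 (0.672 to 1.01), also crossed 1 with the basic transcript set, at 1.21 (1.04 to 1.39), but was counted as moved. The setting with the whole peak in eligible intron is described next. That setting removes peaks that touch an exon while the territory stays, so by construction it empties short introns and the sequence beside exons. It also gave a density of 15.4 per Mb. The ratios were 0.462 to sequence outside genes and 0.757 to introns of the longer genes. Only members were filtered in both ratios, while the compared peaks kept their full counts, so both fall by construction. Genes under 10 kb against 50 to 100 kb stood at 0.401, and 5 kb and over against 250 to 500 bp at 4.30. The setting left 17.6% of genes with a member, a median score of 68.9 and 27.6% of members in first introns.

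Peaks at or above the list's median score numbered 1912, with 7.86 per Mb, ratios of 0.440 to sequence outside genes and 0.759 to the longer genes, an intron length ratio of 6.50, a gene length ratio of 0.621, a far exon ratio of 5.99, 10.2% of genes, 33 listed genes, a median width of 877 bp and a median score of 103.9. Peaks with a score of 100 or more numbered 1035, with 4.25 per Mb, ratios of 0.391 and 0.669, a rank ratio of 1.42, an intron length ratio of 7.46, a gene length ratio of 0.599, a far exon ratio of 7.80, 6.02% of genes, 24 listed genes, a median width of 1075 bp, a median score of 140.9 and 21.6% in first introns. These settings choose peaks by score, so density, width and score move with them.

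More than 5 kb from starts, density was 20.4 per Mb, the ratios 0.596 and 0.977, the rank ratio 1.12, the median width 651 bp and the median score 69.3. With the basic transcript set, density was 19.6 per Mb, the ratios 0.588 and 0.974, the gene length ratio 1.21, the near exon ratio 3.17, the share of genes 24.3% and the share in first introns 20.7%. With genes under 50 kb, 2296 members gave a far exon ratio of 3.69, 15.5% of genes, 28 listed genes, a median width of 632 bp and a median score of 66.8. The lowest rank in any coding transcript put 30.9% of members in first introns. The cause of these shifts was not tested. Of 90 values for single gene lists, 76 stayed within the gene list's interval. Among peaks at or above the peak list's median score, the share was 0% for the spermatogonial and the blood and macrophage lists. It was 3.33% for RNA polymerase I and nucleolus, 11.4% for meiotic and 23.8% for cilium and flagellum. The same filter took the share over all eligible genes from 21.5% to 10.2%. The intervals of these lists at that score included 10.2%, except for cilium and flagellum (12.1 to 39.5), whose genes had more eligible intron. The other gene lists stayed within their unfiltered intervals there. The alternatives for sequence content were not run, since they need a genome sequence. No paired analysis was possible because 1 library has a peak list. Read depth is unknown and limits every value.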
